A study of Homo sapiens with 13 samples.

Results

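Notch signalling genes were followed through AC16 cells that had been preconditioned, exposed to FCCP, both or neither. The set held 10 of the 63241 gene IDs counted in each library: the ligands JAG1, JAG2 and DLL4, the receptors NOTCH1, NOTCH2 and NOTCH3, the transcriptional repressors HES1, HES4 and HEY1, and the feedback inhibitor NRARP. The set was chosen by the levels of HES1 and DLL4, which were higher with FCCP in preconditioned cells. The comparison of preconditioning+FCCP with preconditioning therefore chose the genes and is given below as a description with no test. AC16 is a human cardiac line, a hybrid of cells from adult ventricle and an immortal fibroblast, and FCCP carries protons across the inner mitochondrial membrane and so uncouples respiration. RNA-seq libraries numbered 3 for preconditioning+FCCP, 3 for FCCP, 4 for preconditioning and 3 for control. The series text describes optogenetic preconditioning with a construct called mOpto. The labels call every library wildtype and myocyte, give no dose or time, and do not say whether FCCP and control cells carried the construct or received light. They also do not say whether replicates were separate cultures. P-values here set the difference between groups against the spread among libraries of a group, and that spread may be technical.

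In Notch signalling a ligand on one cell engages a receptor on its neighbour, and ADAM proteases and then gamma-secretase cut the receptor and free its intracellular domain. That domain joins the DNA-binding protein RBPJ and a Mastermind coactivator and turns on genes of the HES and HEY families and NRARP, while RBPJ without it binds corepressors. In the heart the pathway is known for its part in endocardial and valve development, and DLL4 is best known from arterial and sprouting endothelium.

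Promoters of HES1, HES4, DLL4 and NRARP are shown because HES1 and HES4 shared letters that RBPJ is known to bind and because DLL4 and NRARP, whose mean levels were highest in the same group as that of HES1, did not hold them in this window. Each is the 250 bases before the start of the gene in RefSeq on GRCh38.p14, written 5′ to 3′ on the strand of the gene, with TGGGAA in capitals.
HES1, chr3:194135898-194136147, plus strand: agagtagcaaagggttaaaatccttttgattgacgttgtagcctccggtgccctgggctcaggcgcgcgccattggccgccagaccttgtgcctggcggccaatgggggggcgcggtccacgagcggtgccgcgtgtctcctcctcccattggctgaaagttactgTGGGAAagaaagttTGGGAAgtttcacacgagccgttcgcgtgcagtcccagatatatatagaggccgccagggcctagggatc
HES4, chr1:1000098-1000347, minus strand: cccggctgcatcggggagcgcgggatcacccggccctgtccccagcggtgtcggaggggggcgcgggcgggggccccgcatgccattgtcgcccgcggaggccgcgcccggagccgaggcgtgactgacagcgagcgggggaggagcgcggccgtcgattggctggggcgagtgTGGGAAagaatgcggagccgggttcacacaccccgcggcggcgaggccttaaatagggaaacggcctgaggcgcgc
DLL4, chr15:40929090-40929339, plus strand: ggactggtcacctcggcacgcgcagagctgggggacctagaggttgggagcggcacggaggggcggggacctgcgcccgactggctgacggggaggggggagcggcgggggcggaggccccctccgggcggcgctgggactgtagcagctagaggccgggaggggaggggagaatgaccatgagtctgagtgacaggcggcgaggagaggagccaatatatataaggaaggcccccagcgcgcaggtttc
NRARP, chr9:137302272-137302521, minus strand: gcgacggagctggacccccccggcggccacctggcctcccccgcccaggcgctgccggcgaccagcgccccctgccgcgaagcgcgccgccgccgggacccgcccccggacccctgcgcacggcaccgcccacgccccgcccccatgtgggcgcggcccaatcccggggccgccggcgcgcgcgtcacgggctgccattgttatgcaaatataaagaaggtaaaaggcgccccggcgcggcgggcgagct

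RefSeq windows were found for 9 of the 10 genes, and TGGGAA, searched on both strands, was present in 2 of these 9, HES1 and HES4. HES1 held it from 84 to 79 and again from 70 to 65 bases before the start, and HES4 held it from 76 to 71 bases before the start. Among 27305 promoter windows of the same length, 21.1% held TGGGAA at least once and 2.92% at least 2 times. The longer GTGGGAA, which contains TGGGAA, was in the first HES1 match and the HES4 match, and in 5.46% of all windows. Around it the windows of HES1 and HES4 shared an unbroken run of 12 bases, TGTGGGAAAGAA, their longest in common. It was held by 6 of the 27305 windows (0.022%), HES1 and HES4 among them. The run was picked from these windows, so that share does not say how unusual the match is. How often other pairs of promoters share a run this long was not counted. The letters CACNAG, searched on both strands for the known habit of HES proteins to bind such sequences, occurred 3 times in HES1 and 1 time in NOTCH3, and in 32.0% of all windows. These matches describe letters in a window and do not show binding.

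Sequencing gave 14970803 to 20636229 gene counts per library, with a median of 17127976, and levels below are CPM, a gene's counts relative to the TMM-scaled size of the library. Overlap between groups is described gene by gene. The share of all genes without overlap was not counted, so a lack of overlap is not read as particular to these genes. Reads aligned to several places made up 3.16% to 11.5% of a library, and a gap between 5.22% and 7.13% parted 6 libraries with a higher share (preconditioning+FCCP 3, all FCCP, control 1 and 2) from 7 with a lower share (preconditioning+FCCP 1 and 2, all preconditioning, control 3). FCCP 1 and control 3 stood apart from the other libraries of their groups in several Notch genes. For some results that rest on them, values without them or ranges over single leave-outs are given. Of 14 cardiomyocyte markers 5 passed the filter on low counts, and TNNT2, the heart muscle troponin T, was at 0 counts in all 13 libraries although the label says myocyte. Fibroblast markers summed to 2671 to 4336 CPM in preconditioning+FCCP, 9042 to 10623 CPM in FCCP, 9373 to 9981 CPM in preconditioning and 7363 to 14444 CPM in control libraries.

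Of the ligands, DLL4 was below 1 CPM in every library outside preconditioning+FCCP except FCCP 1. DLL4 had 4.58, 5.13 and 6.10 CPM in preconditioning+FCCP, 2.50, 0.0658 and 0.552 CPM in FCCP, 0.0576, 0.114, 0.118 and 0.156 CPM in preconditioning, and 0.229, 0 and 0.438 CPM in control libraries. The preconditioning+FCCP libraries did not overlap any other group. DLL4 reached the filter on low counts through the preconditioning+FCCP libraries, since 1 FCCP library and no preconditioning or control library lay above the cutoff. Summed over a group, 312 DLL4 reads in preconditioning+FCCP stood against 45 in FCCP, 8 in preconditioning and 11 in control libraries. JAG1, a ligand of broader expression, had 20.3, 23.7 and 25.9 CPM in preconditioning+FCCP, 21.7, 4.61 and 5.32 CPM in FCCP, 10.7, 11.2, 9.76 and 7.33 CPM in preconditioning, and 6.65, 5.34 and 27.3 CPM in control libraries. FCCP 1 and control 3 reached the preconditioning+FCCP level of JAG1, while the other libraries stayed at or below 11.2 CPM. JAG2, the second Jagged ligand, averaged 0.932 ± 0.206 CPM in preconditioning+FCCP, 3.29 ± 2.28 CPM in FCCP, 2.05 ± 1.21 CPM in preconditioning and 4.03 ± 3.41 CPM in control libraries (SD, n = 3, 3, 4 and 3), and its groups overlapped widely.

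Among the receptors, NOTCH2 was highest in preconditioned cells that had received no FCCP. NOTCH2 had 238, 167 and 158 CPM in preconditioning+FCCP, 134, 122 and 109 CPM in FCCP, 553, 493, 328 and 390 CPM in preconditioning, and 90.3, 77.2 and 210 CPM in control libraries. All 4 preconditioning libraries stood above all others, and control 3 was far above the other two controls. NOTCH3, a receptor best known from mural cells, also had its highest mean there, with 6.66, 4.72 and 4.29 CPM in preconditioning+FCCP, 9.64, 12.7 and 20.6 CPM in FCCP, 25.7, 22.7, 16.4 and 26.7 CPM in preconditioning, and 8.49, 10.5 and 4.44 CPM in control libraries. Its preconditioning+FCCP libraries overlapped the controls and lay below all FCCP and preconditioning libraries, and FCCP 3 reached the preconditioning range. NOTCH1, a receptor expressed in many tissues, had 95.6, 106 and 113 CPM in preconditioning+FCCP, 75.6, 43.0 and 49.2 CPM in FCCP, 75.5, 77.7, 67.5 and 86.4 CPM in preconditioning, and 57.3, 49.5 and 102 CPM in control libraries. Here preconditioning+FCCP was above FCCP and preconditioning without overlap, and control 3 reached into its range.

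The repressors HES1 and HES4 were both lowest in preconditioning libraries. HES1, the best known direct Notch target, had 6.37, 50.9 and 72.5 CPM in preconditioning+FCCP, 31.2, 4.34 and 3.52 CPM in FCCP, 1.15, 1.14, 2.66 and 1.82 CPM in preconditioning, and 3.44, 4.92 and 6.63 CPM in control libraries. Preconditioning+FCCP 1 lay within the range of the controls, and FCCP 1 was far above FCCP 2 and 3. HES4, a HES1 relative, had 9.15, 9.78 and 14.5 CPM in preconditioning+FCCP, 13.9, 14.4 and 23.8 CPM in FCCP, 3.17, 4.21, 3.73 and 4.47 CPM in preconditioning, and 25.9, 21.1 and 6.88 CPM in control libraries. Every preconditioning library was below every other library for HES4. HEY1, a HES-related repressor of the same pathway, had 3.30, 4.40 and 1.86 CPM in preconditioning+FCCP, 0.624, 0.197 and 0.276 CPM in FCCP, 0.230, 0.625, 0.769 and 0.208 CPM in preconditioning, and 0.745, 0.243 and 2.50 CPM in control libraries. Its preconditioning+FCCP libraries were above FCCP and preconditioning, with control 3 inside their range. NRARP, which limits Notch signalling as part of a feedback loop, had 3.36, 2.83 and 4.24 CPM in preconditioning+FCCP, 1.04, 0.658 and 1.31 CPM in FCCP, 0.806, 0.512, 0.828 and 1.14 CPM in preconditioning, and 0.860, 0.911 and 1.502 CPM in control libraries. No library of another group reached the preconditioning+FCCP level of NRARP.

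**Figure D1:**
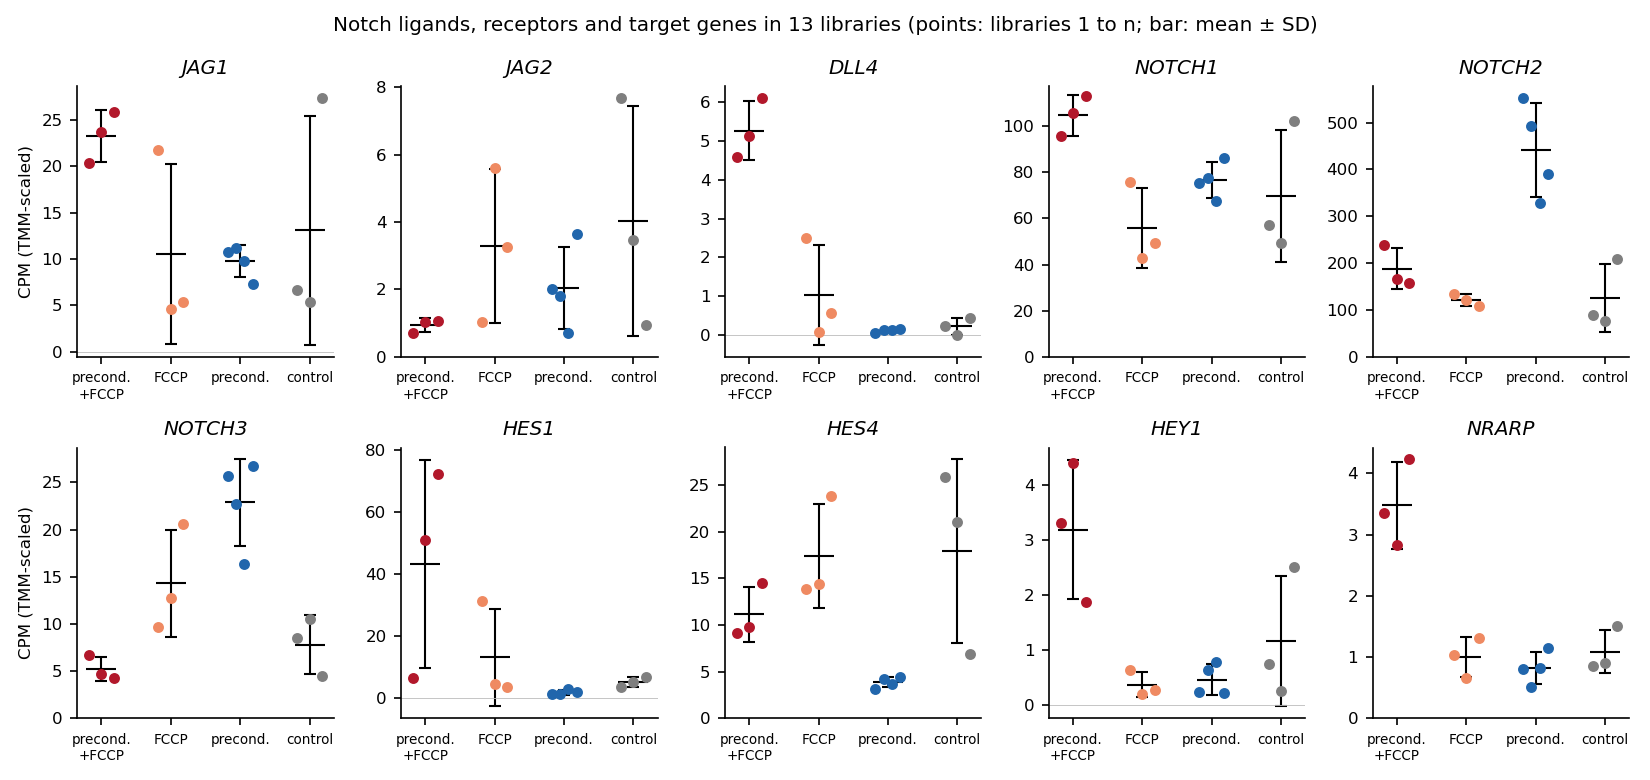
Levels of the 10 genes in CPM (y axis, linear, a scale per panel) in each library, by group (x axis: preconditioning+FCCP, FCCP, preconditioning, control). Points are libraries and black bars the mean ± SD. DLL4 and NRARP stand apart in the 3 preconditioning+FCCP libraries, NOTCH2 in the 4 preconditioning libraries, and FCCP 1 is the high FCCP point of HES1, DLL4 and JAG1.

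Per length, the order among genes changed with the group. In preconditioning+FCCP libraries HES1 led with a mean level of 21.0 CPM per kb of exon, followed by NOTCH2 at 11.2, NOTCH1 at 10.1 and HES4 at 9.97 CPM per kb. The HES1 mean rests on libraries from 6.37 to 72.5 CPM, so its place above NOTCH2 lies within their spread. By group mean, FCCP and control libraries were led by HES4, at 15.5 CPM per kb in FCCP and 16.04 CPM per kb in control, with NOTCH2 next at 7.23 CPM per kb in FCCP and 7.48 CPM per kb in control. Single libraries departed from this order. In control 3 NOTCH2 stood at 12.5 and NOTCH1 at 9.87 CPM per kb, above HES4 at 6.16. NOTCH1 stood above NOTCH2 in control 1, at 5.52 against 5.37 CPM per kb, and in control 2, at 4.77 against 4.59. In FCCP 1 HES1 stood at 15.1 CPM per kb, above HES4 at 12.4. Preconditioning libraries were led by NOTCH2 at 26.3 CPM per kb, with NOTCH1 at 7.40, HES4 at 3.48 and HES1 at 0.821 CPM per kb. DLL4 was the lowest of the 10 in preconditioning and control libraries, at 0.0234 and 0.0467 CPM per kb, and reached 1.11 CPM per kb in preconditioning+FCCP. Exon lengths were taken from GENCODE 29, whose gene models may differ from those used for counting.

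FCCP against control is the one comparison here whose groups played no part in the choice of genes. The spread behind its tests was still estimated from all 13 libraries. DLL4 passed the filter through the preconditioning+FCCP libraries, so its p-value here is not independent of the choice. None of the 10 genes was called at an adjusted p under 0.05 by edgeR's quasi-likelihood test, 2 had an unadjusted p under 0.05, and every gene overlapped between the groups. Across all 16756 genes tested, 1.6% were called higher and 1.92% lower, and 3448 had an unadjusted p under 0.05. The 2 of 10 are therefore not read as an excess. The median log2 change of the 10 was -0.08, against -0.04 over all genes. DLL4 had a log2 change of 2.19 ± 0.92 (SE, adjusted p = 0.192) and HES1 1.38 ± 0.78 (adjusted p = 0.332). Both rest on FCCP 1: without it the log2 change was 0.43 for DLL4 and -0.37 for HES1. NOTCH3 had 0.87 ± 0.34 (adjusted p = 0.159) and HEY1 -1.65 ± 0.78 (adjusted p = 0.245). Control 3 held the highest HEY1 level of these groups, 2.50 CPM, and over single leave-outs HEY1 ranged from -2.28 to -0.46. The remaining 6 lay between -0.32 for NOTCH1 and -0.05 for HES4 and NOTCH2, with adjusted p from 0.516 to 0.960. Within the libraries with a higher share of reads aligned to several places, 3 FCCP against 2 control, the log2 difference was 1.77 for DLL4, 0.92 for HES1 and 0.52 for NOTCH3. When no filter on low counts was used, HES1 and DLL4 were called (adjusted p = 0.000257 and 0.0265).

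Preconditioning against control was led by 2 receptors that rose and a HES gene that fell. This comparison shares its preconditioning libraries with the one that chose the genes, and its control libraries with FCCP against control, so HES1 and DLL4 are given as a description. NOTCH2 averaged 441 ± 101 CPM in preconditioning and 126 ± 73.1 CPM in control libraries (SD, n = 4 and 3) and rose by 1.81 ± 0.31 on the log2 scale (SE, adjusted p = 0.00237). NOTCH3 averaged 22.9 ± 4.64 CPM in preconditioning and 7.81 ± 3.09 CPM in control libraries and rose by 1.55 ± 0.32 (adjusted p = 0.00508). HES4 averaged 3.89 ± 0.574 CPM in preconditioning and 17.9 ± 9.87 CPM in control libraries, a log2 change of -2.20 ± 0.36 (adjusted p = 0.00215). For each of these 3 genes no library of one group reached the other, which was not counted over all genes. Of the 8 genes tested, 2 were called higher and 1 lower, where 10.5% of all genes were called higher and 13% lower. The other 5 ranged from -1.34 for HEY1 to 0.14 for NOTCH1, with adjusted p from 0.167 to 0.706. HEY1, again highest in control 3, lay between -1.81 and -0.13 over single leave-outs. HES1 was described at -1.56 ± 0.77, with every preconditioning library below every control, and DLL4 at -0.94 ± 1.06.

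Library set and group run together in this comparison, because all 4 preconditioning libraries had a lower share of reads aligned to several places and control 3 was the one control like them. Against control 3 alone the log2 difference was 1.04 for NOTCH2, 2.31 for NOTCH3 and -0.82 for HES4. With the library set as a term in the fit HES4 was at -1.24 and no longer called (adjusted p = 0.0635), while NOTCH2 and NOTCH3 stayed called.

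Preconditioning+FCCP against FCCP was led by NRARP, HEY1 and NOTCH1, which rose, and NOTCH3, which fell. It shares the preconditioning+FCCP libraries with the choosing comparison, so HES1 and DLL4 are again described only. NRARP averaged 3.48 ± 0.709 CPM in preconditioning+FCCP and 1.00 ± 0.328 CPM in FCCP libraries (SD, n = 3 each) and rose by 1.79 ± 0.43 on the log2 scale (SE, adjusted p = 0.00549), and it was called under all 14 alternatives tested. HEY1 averaged 3.19 ± 1.27 CPM in preconditioning+FCCP and 0.366 ± 0.227 CPM in FCCP libraries and rose by 3.11 ± 0.77 (adjusted p = 0.00629). NOTCH1 averaged 105 ± 8.88 CPM in preconditioning+FCCP and 56.0 ± 17.3 CPM in FCCP libraries and rose by 0.91 ± 0.26 (adjusted p = 0.0127). NOTCH3 averaged 5.23 ± 1.26 CPM in preconditioning+FCCP and 14.3 ± 5.64 CPM in FCCP libraries and fell by 1.45 ± 0.34 (adjusted p = 0.00479). For these 4 genes the groups did not overlap, which was not counted over all genes. Of the 8 genes tested, 3 were called higher and 1 lower, where 17.9% of all genes were called higher and 17.7% lower. NOTCH2 was at 0.63 ± 0.31 (adjusted p = 0.128), JAG1 at 1.14 ± 0.57 (0.129), HES4 at -0.64 ± 0.38 (0.196) and JAG2 at -1.81 ± 0.72 (0.0604).

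Single FCCP libraries decided part of that picture. Of the 8 genes tested, 4 were called with all libraries, 6 without FCCP 1, 3 without FCCP 2 and 3 without FCCP 3. Without FCCP 1, JAG1 (log2 change 2.23, adjusted p = 0.00539) and JAG2 (-2.23, adjusted p = 0.0210) were called. NOTCH1 was not called without FCCP 2 (adjusted p = 0.0773) or without FCCP 3 (0.0657). HES1 was at 1.73 ± 0.76 with overlap and DLL4 at 2.34 ± 0.76 without overlap, and without FCCP 1 they were at 3.46 and 4.08. By summed reads the DLL4 level in preconditioning+FCCP was 5.15 times that in FCCP libraries, also as a description. Preconditioning+FCCP 3 was the one library of its group with a higher share of reads aligned to several places, like all FCCP libraries, and against them it showed log2 differences of 2.00 for NRARP, 2.14 for HEY1, 1.06 for NOTCH1 and -1.64 for NOTCH3. With the library set as a term in the fit NRARP was called, and HEY1 (adjusted p = 0.0596), NOTCH1 (0.0836) and NOTCH3 (0.0699) were not.

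In preconditioning+FCCP against preconditioning, the comparison that chose the set, 7 of the 10 genes stood higher and 3 lower. The log2 change was 5.47 ± 0.86 for DLL4 and 4.67 ± 0.79 for HES1, the genes behind the choice. By summed reads the DLL4 level was 46.8 times that in preconditioning libraries, which describes the libraries that chose the gene. HEY1 was at 2.79 ± 0.66, NRARP at 2.06 ± 0.39, HES4 at 1.51 ± 0.36, JAG1 at 1.26 ± 0.53 and NOTCH1 at 0.45 ± 0.23, each with no overlap between the groups. The receptors NOTCH3 at -2.13 ± 0.33 and NOTCH2 at -1.23 ± 0.30 were lower without overlap, and JAG2 was at -1.13 ± 0.68 with overlap. The same fit called 5 of the 10 higher and 2 lower, where 20.2% of all genes were called higher and 19.2% lower, and nothing is read from that count. The lower-share set held 2 preconditioning+FCCP and 4 preconditioning libraries. Within it the log2 differences were 4.47 for DLL4, 3.41 for HES1, 2.91 for HEY1, 1.81 for NRARP and 1.27 for HES4. JAG1 was at 1.18 there, NOTCH1 at 0.39, JAG2 at -0.97, NOTCH2 at -1.12 and NOTCH3 at -1.98. The change with FCCP in preconditioned cells minus that without preconditioning is also given as a description. It was 4.44 ± 1.03 for HEY1, 3.29 ± 1.08 for HES1, 3.28 ± 1.32 for DLL4, 2.18 ± 0.59 for NRARP and 1.57 ± 0.78 for JAG1. HES4 was at 1.56 ± 0.52, NOTCH1 at 0.77 ± 0.35, JAG2 at -0.84 ± 0.95, NOTCH2 at -1.18 ± 0.43 and NOTCH3 at -3.00 ± 0.47. The HEY1 value includes its change in FCCP against control, which ranged from -2.28 to -0.46 over single leave-outs.

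**Figure D2:**
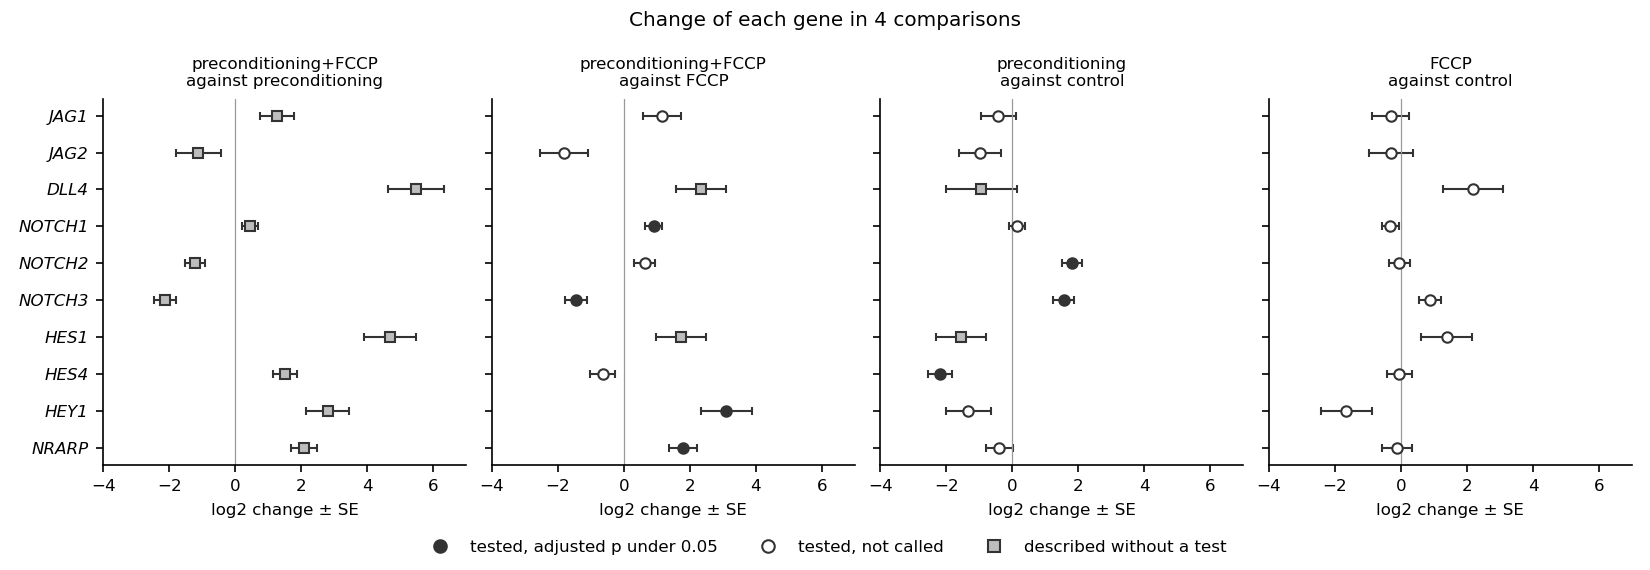
Log2 change ± SE (x axis) of each gene (y axis) in the 4 comparisons, one panel each. Filled circles were called at an adjusted p under 0.05, open circles were tested and not called, and grey squares are described without a test. No circle is filled in FCCP against control, and NOTCH3 lies right of 0 with preconditioning alone and left of 0 when FCCP follows preconditioning.

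DLL4, HEY1 and JAG1 are also known from endothelial cells, and 9 of 12 endothelial markers passed the filter on low counts. Summed over the 12, they reached 22.3 to 29.8 CPM in preconditioning+FCCP, 23.6 to 27.8 CPM in FCCP, 42.5 to 58.8 CPM in preconditioning and 17.2 to 43.1 CPM in control libraries. EMCN, an endothelial sialomucin, was at 0 counts in every preconditioning+FCCP and preconditioning library. In preconditioning+FCCP against preconditioning 1 of the 9 was called higher, ESAM at 3.38 ± 0.56, and 3 were called lower, TEK, VWF and ROBO4, where 20.2% of all genes were called higher and 19.2% lower. NOTCH3 is known from mural cells, and smooth muscle and pericyte markers summed to 131 to 152 CPM in preconditioning+FCCP, 226 to 357 CPM in FCCP, 305 to 335 CPM in preconditioning and 271 to 371 CPM in control libraries, with 4 of 8 called lower in preconditioning+FCCP against FCCP and against preconditioning. Fibroblast markers were called lower for 8 of 10 in each of those comparisons, in which 17.7% of all genes were called lower against FCCP and 19.2% against preconditioning. The part of these marker changes in the Notch values was not tested, and in bulk RNA fewer cells of a type and less RNA per cell cannot be told apart.

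The genes whose profile over the 13 libraries lay nearest to HES1 and DLL4 were sought among 14122 genes of at least 1 mean CPM, by the root mean square difference of centred log2 CPM. Nearest to HES1 were SLC25A34 at 0.75, AOC2 at 0.79, LTA at 0.79 and GCNA at 0.80 log2 units. Nearest to DLL4 were FAM222A at 0.64, AOC2 at 0.72, PYGM at 0.75 and NGFR at 0.76 log2 units. All 7 share with HES1 and DLL4 a high FCCP 1 library, though they were picked for like profiles over these same libraries. AOC2, an amine oxidase and the one gene on both lists, had 50.4, 54.8 and 76.6 CPM in preconditioning+FCCP, 39.3, 10.1 and 6.49 CPM in FCCP, 3.34 to 3.69 CPM in preconditioning, and 7.51, 4.86 and 8.82 CPM in control libraries. NGFR, the low-affinity neurotrophin receptor, had 23.5, 41.4 and 19.1 CPM in preconditioning+FCCP, 8.33, 0.724 and 0.690 CPM in FCCP, 0.414 to 1.77 CPM in preconditioning, and 0.573, 0.304 and 1.502 CPM in control libraries. These lists say which genes had like levels and nothing of shared control.

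**Figure D3:**
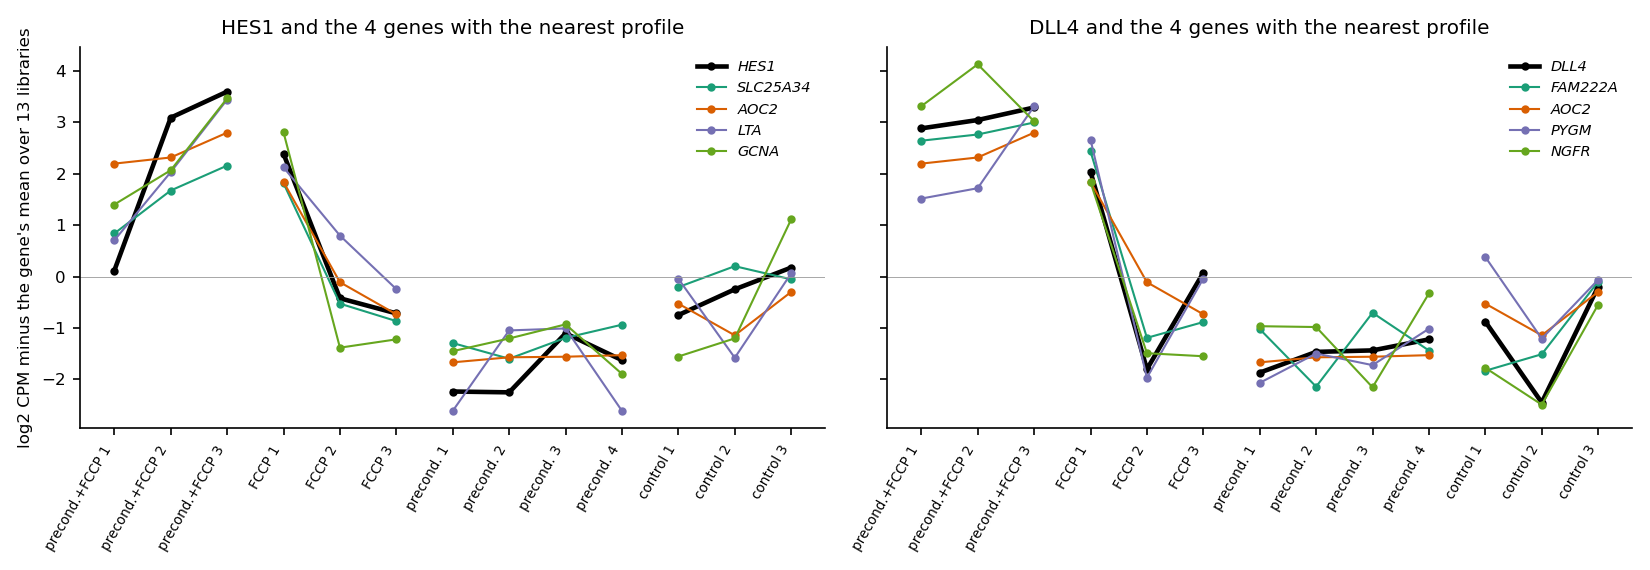
Centred log2 CPM (y axis: log2 CPM minus the gene's mean over 13 libraries) in each library (x axis) for HES1 on the left and DLL4 on the right, each with its 4 nearest genes. Lines join libraries of one group and replicates have no order. All genes drawn are above their mean in the preconditioning+FCCP libraries and in FCCP 1. In preconditioning+FCCP 1 HES1 is near its mean (0.12), and LTA (0.70) is below its value in FCCP 2 (0.80).

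Beyond the 10 genes, 67 of 73 other Notch pathway genes passed the filter on low counts, and in FCCP against control 2 were called higher (2.99%) and 2 lower (2.99%), near the 1.6% and 1.92% of all genes. Their median log2 change was -0.01. HES6, a HES-family factor known in mouse to counteract Hes1, rose by 1.90 ± 0.23 (adjusted p = 0.00212) and was called whichever of the 6 libraries was left out. SNAI1, a repressor of epithelial genes, rose by 1.63 ± 0.40 (adjusted p = 0.0371) and was not called whichever of the 6 libraries was left out. MYC changed by -2.12 ± 0.40 (adjusted p = 0.0185), which was lost without FCCP 2, and SOX9 by -1.53 ± 0.38 (adjusted p = 0.0389), which was lost without control 3 or any FCCP library. The count of 4 became 2 without control 3, 7 without FCCP 1, 1 without FCCP 2 and 2 without FCCP 3.

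With preconditioning against control, 8 of the 67 were called higher (11.9%) and 7 lower (10.4%), shares near the 10.5% and 13% of all genes, so the calls below describe single genes. POFUT1, the enzyme that adds O-fucose to Notch, rose by 1.16 ± 0.20 (adjusted p = 0.00263), and RFNG, a Fringe sugar transferase, changed by -0.92 ± 0.21 (adjusted p = 0.00743). Of the cleavage genes, PSENEN, a gamma-secretase subunit, changed by -2.47 ± 0.45 (adjusted p = 0.00283), while the protease ADAM17 rose by 1.22 ± 0.30 (0.0104), the subunit APH1B by 0.72 ± 0.20 (0.0171) and the receptor-processing protease FURIN by 0.77 ± 0.21 (0.0179). Among ubiquitin ligases MIB2 changed by -1.19 ± 0.17 (adjusted p = 0.00154) and DTX3 by -0.65 ± 0.18 (0.0177), and NEURL1B rose by 1.14 ± 0.38 (0.0393) and DTX3L by 0.54 ± 0.18 (0.0449). The acetyltransferase KAT2A changed by -1.37 ± 0.25 (adjusted p = 0.00269) and HES7 by -1.64 ± 0.42 (0.0131). Of the corepressor genes CIR1 changed by -1.14 ± 0.28 (adjusted p = 0.0107), and SPEN and KDM5A rose by 0.90 ± 0.27 (0.0241) and 0.75 ± 0.23 (0.0273). POFUT1, PSENEN, MIB2 and KAT2A were called whichever library was left out, but PSENEN was not with the library set as a term (adjusted p = 0.0897). The others named in this comparison each lost their call without at least 1 library. The count of 15 became 5 without control 1, 6 without control 2, 9 without preconditioning 1 and 3 with the library set as a term.

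Preconditioning+FCCP against FCCP called 12 of the 67 higher (17.9%) and 11 lower (16.4%), about the 17.9% and 17.7% of all genes. The ligand DLL1 had 3.71, 4.64 and 4.12 CPM in preconditioning+FCCP and 1.32, 1.05 and 1.04 CPM in FCCP libraries and rose by 1.87 ± 0.37 (adjusted p = 0.00173). DLK2, a Delta-like protein of the non-canonical kind, changed by -1.64 ± 0.34 (adjusted p = 0.00234). The coactivators EP300, CREBBP and MAML1 rose by 1.26 ± 0.27, 1.12 ± 0.25 and 0.92 ± 0.22 (adjusted p = 0.00276, 0.00371 and 0.00476), while MAML2 changed by -0.85 ± 0.30 (0.0360). Of the corepressor genes HDAC1 changed by -0.94 ± 0.16 (adjusted p = 0.000739) and TLE2 by -0.998 ± 0.279 (0.0123), and NCOR1 rose by 0.76 ± 0.20 (0.00892) and KDM5A by 0.77 ± 0.24 (0.0214). The gamma-secretase subunits APH1B and APH1A changed by -1.14 ± 0.21 and -0.63 ± 0.19 (adjusted p = 0.00125 and 0.0172), and ADAM17 rose by 1.51 ± 0.32 (0.00255). RFNG changed by -0.85 ± 0.23 (adjusted p = 0.00976), MIB1 rose by 0.80 ± 0.25 (0.0236), and NEURL1B changed by -1.34 ± 0.41 (0.0187). PDGFRB, a mural cell receptor reported as a Notch target, changed by -1.38 ± 0.20 (adjusted p = 0.000326). DLL1, DLK2, ADAM17, APH1B, MAML1, EP300, CREBBP, HDAC1 and PDGFRB were called whichever of the 6 libraries was left out, and each of the others named lost its call without at least 1 library. The count of 23 became 12 without FCCP 2, 11 without FCCP 3, 14 without preconditioning+FCCP 1 and 13 without preconditioning+FCCP 2.

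Where FCCP followed preconditioning, against preconditioning alone, 12 of the 67 were called higher (17.9%) and 19 lower (28.4%), where all genes gave 20.2% and 19.2%. The median log2 change was -0.19, against 0.02 over all genes. This comparison chose the set through HES1 and DLL4, and the lists were made with earlier results known. P-values of related genes here may therefore not be independent of that choice. Of the 4 other HES and HEY genes tested, 3 rose, where 20.2% of all genes were called higher: HES6 by 1.69 ± 0.21, HES7 by 2.22 ± 0.42 and HEY2 by 2.35 ± 0.73 (adjusted p = 3.69e-05, 0.000828 and 0.0190). HEY2 was not called without preconditioning 1, preconditioning 4, preconditioning+FCCP 2 or preconditioning+FCCP 3, with adjusted p up to 0.0572. DLL1 rose by 2.16 ± 0.34 (adjusted p = 0.000216), and SNAI1 rose by 2.18 ± 0.37 (0.000369). RBPJ itself had 150, 136 and 137 CPM in preconditioning+FCCP and 258, 244, 226 and 231 CPM in preconditioning libraries, a log2 change of -0.76 ± 0.14 (adjusted p = 0.000820). The coactivators MAML2 and MAML3 changed by -1.76 ± 0.29 and -2.78 ± 0.58 (adjusted p = 0.000313 and 0.00164), and SNW1, an RBPJ partner, rose by 0.76 ± 0.17 (0.00281). HDAC1 changed by -0.92 ± 0.15 (adjusted p = 0.000315) and SPEN by -0.92 ± 0.26 (0.0124), while CIR1 rose by 1.11 ± 0.28 (0.00617) and TLE3 by 1.09 ± 0.31 (0.0108). Without preconditioning+FCCP 3 CIR1 was not called (adjusted p = 0.0572).

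In the same comparison 3 of the 9 receptor cleavage genes tested were called lower and 1 higher, where 19.2% of all genes were called lower and 20.2% higher. APH1B changed by -1.55 ± 0.20, ADAM10 by -0.60 ± 0.19 and APH1A by -0.55 ± 0.18 (adjusted p = 6.46e-05, 0.0179 and 0.0231). POFUT1 changed by -0.98 ± 0.20 (adjusted p = 0.00153). MIB2 rose by 1.23 ± 0.17 (adjusted p = 0.000108), and NEURL1B, NUMBL and DTX3L changed by -2.28 ± 0.40, -0.75 ± 0.20 and -0.57 ± 0.18 (0.000496, 0.00753 and 0.0227). ADAM10 was not called without preconditioning 1 or preconditioning+FCCP 3, APH1A without preconditioning 2 or preconditioning+FCCP 3, and DTX3L without preconditioning 1, preconditioning 2 or preconditioning+FCCP 3. Among other reported targets PDGFRB changed by -1.33 ± 0.19, SOX9 by -1.59 ± 0.36 and CCND1 by -2.07 ± 0.56 (adjusted p = 0.000125, 0.00274 and 0.00907). The partial NOTCH2 copies NOTCH2NLA, NOTCH2NLB and NOTCH2NLC changed by -1.36 ± 0.43, -1.51 ± 0.52 and -1.32 ± 0.44 (adjusted p = 0.0215, 0.0291 and 0.0261), but each lost its call without 3 or more of the 7 libraries, and they share sequence with NOTCH2 and each other, so their levels are uncertain.

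**Figure D4:**
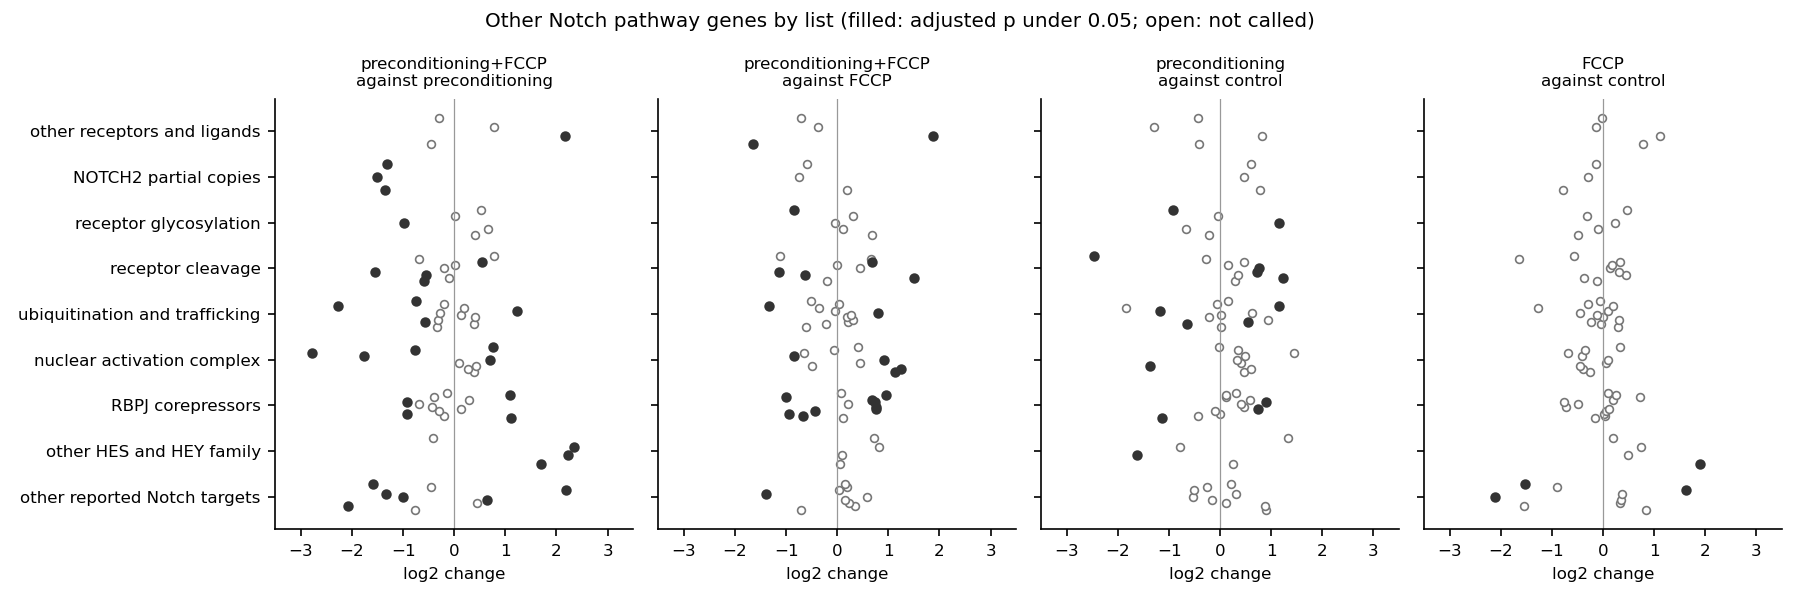
Log2 change (x axis) of the 67 other pathway genes tested, by list (y axis), in the 4 comparisons. Filled points were called at an adjusted p under 0.05 and open points were not. Calls were 12 higher and 19 lower in preconditioning+FCCP against preconditioning, and 2 higher and 2 lower in FCCP against control.

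The change with FCCP differed between preconditioned and other cells for 9 of the 67 genes, 2 with a higher (2.99%) and 7 with a lower (10.4%) change after preconditioning, where 9.38% of all genes were called higher and 9.6% lower. MIB2 and CIR1 were the 2 higher, and POFUT1, APH1A, APH1B, NEURL1B, MAML2, HDAC1 and PDGFRB the 7 lower. The count of 9 became 14 without control 3 and 17 without FCCP 1. HES6, which was called higher with FCCP in both settings, had a difference of -0.20 ± 0.30 between them (adjusted p = 0.678), and DLL1 had 1.04 ± 0.53 (adjusted p = 0.177).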

How the data were processed

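Per the submitters' processing notes, HISAT2, HTSeq and the human build hg19 were used, with no versions. Each deposited file holds raw counts of reads for Ensembl gene IDs, as the authors counted them. The strand setting and annotation release are not given in the sources used here. Sense and antisense reads may not be told apart. In GENCODE 29, exons of another gene covered 7.33% of JAG2 exon bases, 0.85% of JAG1 and none of the other 8 genes. Rows without a gene name stayed out of library sizes and tests: reads aligned to several places, reads outside genes (2.13% to 5.20% of a library) and ambiguous reads (11.0% to 12.4%).

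Genes were filtered with edgeR's filterByExpr (minimum count 10), which kept 16756, scaled with TMM and compared with edgeR 4.0.16 (R 4.3.3) by the quasi-likelihood test in 1 fit of 13 libraries. P-values were Benjamini-Hochberg adjusted across the tested genes, with calls made at an adjusted p under 0.05, and SE is the absolute log2 change over the square root of F. Functions were tested on simulated data. The genes and lists were chosen with earlier results of these data known. Named were all 10 genes, per comparison up to 4 called genes per other list with the smallest adjusted p, markers, and the 4 nearest profiles. A gene that this rule names is not reported here. No libraries of a group agreed within sampling noise (lowest chi-square per degree of freedom 3.12). Alternatives included DESeq2 1.42.0, other scalings and filters, a replicate block, a library set term and leaving out libraries.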

Additional observations from a re-analysis of the deposited data

Results flagged for a closer look

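For 9 other Notch pathway genes the FCCP effect differed between preconditioned and other cells by edgeR's test of the interaction, the change in preconditioning+FCCP against preconditioning minus that in FCCP against control. They are 2 higher and 7 lower of 67 tested (2.99% and 10.4%), where 9.38% of all genes were called higher and 9.6% lower. Of the genes with a lower change after preconditioning, NEURL1B, a ubiquitin ligase for Notch ligands, had the widest difference at -2.48 ± 0.55 on the log2 scale (SE, adjusted p = 0.00719). APH1B was at -1.86 ± 0.29 (adjusted p = 0.00102), PDGFRB at -1.69 ± 0.27 (0.00132), POFUT1 at -1.21 ± 0.29 (0.0103), APH1A at -0.98 ± 0.26 (0.0161) and HDAC1 at -0.94 ± 0.22 (0.00824). MIB2 was at 1.15 ± 0.26 (adjusted p = 0.00719), and it had 189, 219 and 226 CPM in preconditioning+FCCP, 203, 208 and 240 CPM in FCCP, 76.6 to 111 CPM in preconditioning, and 254, 191 and 170 CPM in control libraries. These 7 were called whichever of the 13 libraries was left out. MAML2 was at -1.35 ± 0.41 (adjusted p = 0.0307) and lost its call in 5 of 13 leave-outs, and CIR1 at 1.26 ± 0.42 (0.0442) lost it in 10 of 13.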

How the results depend on the processing

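Under the alternatives, 104 counts of called genes stayed within 1.5 times the value reported, and 32 did not. Of the recomputed log2 changes of the 10 genes, 27 changed sign and none of these was called as reported. The cause was not tested.

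For the 10 genes, calls in FCCP against control became 2 with no filter. Calls in preconditioning against control (3) became 6 without 3 libraries, control 3, preconditioning+FCCP 3 and FCCP 1, which were picked with earlier results known. In preconditioning+FCCP against FCCP, of the 8 genes tested 4 were called, 7 with no filter, 1 with the library set as a term, 8 with those libraries left out and 3 to 6 over single leave-outs. For the other pathway genes, FCCP against control (4) gave 7 with no filter, 1 with the compared groups alone, 14 with the 3 libraries left out and 1 to 7 over single leave-outs. Preconditioning against control (15) gave 3 with the set term, 32 with the 3 libraries left out and 5 to 19 over single leave-outs. Preconditioning+FCCP against FCCP (23) gave 15 with the compared groups alone, 13 with the set term and 11 to 25 over single leave-outs. The interaction (9) gave 14 with no filter, 28 with the 3 libraries left out and 7 to 17 over single leave-outs. Replicate numbers did not pair libraries, since 1 of 12 correlations between same-numbered libraries was over 0.1. A replicate block gave 2 calls of other pathway genes in FCCP against control and 7 in preconditioning against control, and moved no other count by over 1.5 times.

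Signs changed in FCCP against control for NOTCH1 (-0.62 to 0.052 over single leave-outs), NOTCH2 (0.35 with the set term, 0.43 with the 3 libraries left out, -0.31 to 0.52 over single leave-outs), JAG1 (0.26 with the set term, -1.42 to 0.80), JAG2 (-0.93 to 0.55), HES1 (-0.12 with the 3 libraries left out, -0.37 to 1.84), HES4 (0.017 with library totals alone, -0.46 to 0.29) and NRARP (0.12 with the 3 libraries left out, -0.36 to 0.16). In preconditioning against control they changed for NOTCH1 (-0.070 with the set term, -0.054 to 0.52), JAG1 (0.69 with the 3 libraries left out, -0.80 to 0.69) and JAG2 (0.27 with the set term), and in preconditioning+FCCP against FCCP for HES4 (0.14 with the set term). Scaling by library totals moved the median of all genes by 0.11 in preconditioning against control and 0.18 in preconditioning+FCCP against FCCP. At this depth DLL4, HEY1 and NRARP rest on few reads outside preconditioning+FCCP. Summed over a group, NRARP had 44 reads in FCCP, 59 in preconditioning and 54 in control libraries.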
